A study of Homo sapiens with 29 samples.

Results

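The 10 genes described here encode the ligands, receptors and immediate targets of the Notch pathway that were named for this description: the ligands JAG1, JAG2 and DLL1, the Notch-binding transmembrane protein DNER, the receptors NOTCH1, NOTCH2 and NOTCH3, and the target repressors HES1, HEY1 and HEYL. They are 10 of the 28266 gene symbols with counts. The genes were chosen on measured values, because JAG1 and DNER had been seen to differ between both non-targeting siRNAs, so that difference is given as a description and without a test. RNA sequencing was carried out on IMR90 ER:RAS cells, human lung fibroblasts infected with a retroviral vector for a fusion of the estrogen receptor with oncogenic RAS that is switched on by 4-hydroxytamoxifen (4OHT) and drives oncogene-induced senescence. By their labels all groups carried the fusion, which 1 library described below puts in doubt for itself, and all were transfected with an siRNA a day before 4OHT or its solvent DMSO was given. RNA was collected on day 7. The groups were DMSO_siNT (solvent and non-targeting siRNA, siNT), 4OHT_siNT (senescent cells with siNT) and 4OHT_siSMARCA4 (senescent cells with siRNA against SMARCA4, the ATPase of the SWI/SNF chromatin remodelling complex), with 6 libraries each. Every group used 2 siRNAs, numbered 2 and 4, in 3 libraries each. No SMARCA4 siRNA in DMSO cells was analysed here, and nothing in the labels says that libraries of a group came from separate cultures, so p-values measure only the spread between these libraries.

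Notch signaling passes between touching cells. A ligand of the Jagged or Delta-like family on one cell binds a Notch receptor on its neighbor, the receptor is cut by an ADAM protease and then by gamma-secretase, and the released intracellular domain joins the DNA-binding protein RBPJ and a Mastermind coactivator in the nucleus. The best known targets are the HES and HEY genes, which encode basic helix-loop-helix repressors. In senescent fibroblasts, Notch signaling is known for shaping the secreted proteins of the cells and for passing senescence to neighbors, with JAG1 as a ligand in that exchange.

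RBPJ binds a core of 6 bases, written here as TGGGAA or, on the other strand, TTCCCA. To show where these letters lie, the 250 bases upstream of the start of HES1 and HEYL, the targets with matches, and of JAG1, the ligand on which most of the results turn, are printed below on the strand of each gene, 5′ to 3′, with the RBPJ core in capitals. The sequences are those of RefSeq on GRCh38.p14, at chr3:194135898-194136147 for HES1 on the plus strand, chr1:39639644-39639893 for HEYL on the minus strand and chr20:10674000-10674249 for JAG1 on the minus strand.
HES1: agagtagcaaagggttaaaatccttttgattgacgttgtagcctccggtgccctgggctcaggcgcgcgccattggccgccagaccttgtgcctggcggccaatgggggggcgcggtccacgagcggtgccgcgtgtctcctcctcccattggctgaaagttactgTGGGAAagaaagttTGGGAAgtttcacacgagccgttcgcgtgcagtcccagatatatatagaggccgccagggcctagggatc
HEYL: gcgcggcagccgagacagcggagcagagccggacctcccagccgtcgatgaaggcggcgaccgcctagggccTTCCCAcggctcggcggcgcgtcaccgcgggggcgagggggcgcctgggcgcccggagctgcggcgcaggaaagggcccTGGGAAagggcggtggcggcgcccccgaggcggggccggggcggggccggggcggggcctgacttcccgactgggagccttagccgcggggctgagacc
JAG1: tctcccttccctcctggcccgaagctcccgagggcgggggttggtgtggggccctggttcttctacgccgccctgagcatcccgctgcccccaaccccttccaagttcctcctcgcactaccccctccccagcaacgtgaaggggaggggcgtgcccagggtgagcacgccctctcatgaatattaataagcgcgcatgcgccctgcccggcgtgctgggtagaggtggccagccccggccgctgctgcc

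Promoters of 7 of the 10 genes were matched by symbol (NOTCH1, NOTCH2, NOTCH3, JAG1, JAG2, HES1 and HEYL). HES1 held the core at 84 and 70 bases upstream of its start, both on the gene's strand, and HEYL held it at 178 bases on the other strand and at 99 bases on its own. None of the other 5 windows held it. Over all 35116 promoters of the table, 20.8% held the core within the same 250 bases. The N box, CACNAG on either strand, is the site by which HES1 is known to repress its own gene. It was found at 165, 132 and 58 bases upstream of HES1 and at 211 bases upstream of NOTCH3, against 32.0% of all promoters with at least 1 match. The E box CACGTG, which HEY proteins bind, was in none of the 7 windows and in 6.34% of all promoters. No match overlapped one of another motif.

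Libraries held between 9657309 and 18039313 counts. SMARCA4 itself lay at 70.4 to 141 CPM (counts relative to the library total after TMM scaling) in the 4OHT_siSMARCA4 libraries and at 275 to 330 CPM in 4OHT_siNT, and it fell by 1.61 ± 0.14 (SE) on the log2 scale (adjusted p = 1.30e-06), with no overlap. All 11 fibroblast markers were above 1 CPM on average in every group, and they summed to 17700 to 43500 CPM in DMSO_siNT, 23800 to 37300 CPM in 4OHT_siNT and 12200 to 23400 CPM in 4OHT_siSMARCA4, without overlap between the 4OHT groups. Summed over 4 proliferation genes (MKI67, TOP2A, CCNB1, CDK1), the level was 195 to 336 CPM in DMSO_siNT and 13.6 to 23.0 CPM in 4OHT_siNT. Genes listed as markers of other cells also moved between the groups, and whether such cells were present was not tested. The 7 smooth muscle and pericyte markers, of cells known for NOTCH3, were led by ACTG2 and CSPG4. They summed to 341 to 900 CPM in DMSO_siNT, 209 to 296 CPM in 4OHT_siNT and 70.2 to 191 CPM in 4OHT_siSMARCA4. In these groups 6, 4 and 4 of the 7 were at or above a mean of 1 CPM. The 9 epithelial markers summed to 105 to 148, 64.1 to 81.0 and 34.8 to 59.2 CPM, with KRT5, SFTPC and SCGB1A1 at 0 throughout, the 7 endothelial markers to at most 16.3 CPM, and the 7 leukocyte markers to 45.2 to 75.0 CPM, nearly all of it CD68, with NKG7 at 0. The part of these shifts in the results below was not tested. In bulk RNA, fewer cells of a type and less RNA per cell cannot be told apart.

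The library labelled DMSO_siNT 4-2V (siRNA number 4, set 2V) stood apart from its group. It had the fewest counts of all, and ESR1 and HRAS, whose reads include those of the fusion, lay at 29.5 and 436 CPM in it against 1034 to 1316 and 2165 to 2852 CPM in the other 5 DMSO_siNT libraries. These levels go against its label as ER:RAS cells, so that it may be another kind of cell than its group, which was not tested. It also held the lowest NOTCH2, NOTCH3 and JAG2 and the highest HES1, HEYL and DNER of its group. Results for NOTCH2, NOTCH3, HES1 and HEYL are given with and without it, and the fits for JAG2 and DNER with it. JAG2 lay at 2.03 CPM in 4-2V against 2.54 to 3.79 CPM in the other 5 libraries. DNER lay at 1.20 CPM against 0.286 to 0.582 CPM. The lowest 4OHT_siNT library held 1.16 CPM of DNER, so 4-2V alone made DMSO_siNT overlap 4OHT_siNT for that gene. The labels name a set for each sample, a number followed by V or VM, without saying what the letters stand for. All 6 4OHT_siNT libraries came from VM sets, against 3 of DMSO_siNT and 2 of 4OHT_siSMARCA4, which also had 1 library whose column names set 1VM where no sample title does. It was kept in the group and assigned to no set. Values within VM sets, without that library unless stated, are given beside the results they bear on.

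Per kilobase of the MANE Select transcript, the genes fell into 2 tiers in senescent cells. In 4OHT_siNT the order was HES1 (32.0 ± 8.4 CPM per kilobase, SD, n = 6), NOTCH3 (14.0 ± 1.6), JAG1 (10.8 ± 4.0), NOTCH2 (10.7 ± 1.8), HEY1 (8.34 ± 1.0) and NOTCH1 (7.97 ± 1.2), followed by DNER (1.18 ± 0.78), JAG2 (0.629 ± 0.12), DLL1 (0.270 ± 0.058) and HEYL (0.156 ± 0.075). Neighbors from NOTCH3 to NOTCH1 overlapped within 1 SD, as did DNER with JAG2 and DLL1 with HEYL, whereas HES1 was above NOTCH3, NOTCH1 above DNER and JAG2 above DLL1 beyond that spread. In DMSO_siNT, NOTCH2 (15.7 ± 5.5), HES1 (15.7 ± 14), NOTCH3 (11.7 ± 5.9) and JAG1 (8.42 ± 1.1) led with overlapping neighbors, NOTCH1 stood alone at 3.72 ± 0.74, and HEY1 was in the lower tier at 0.699 ± 0.26, overlapping JAG2 at 0.536 ± 0.12. The lowest there were DNER (0.168 ± 0.10), DLL1 (0.0764 ± 0.060) and HEYL (0.0157 ± 0.025), whose neighbors overlapped. The place of HES1 in DMSO_siNT rested on 4-2V. Without that library the means were 17.2 for NOTCH2, 13.7 for NOTCH3, 9.97 for HES1 and 8.23 for JAG1. With SMARCA4 siRNA the order was HES1 (20.8 ± 5.9), HEY1 (12.3 ± 2.4), NOTCH3 (11.1 ± 2.3), NOTCH2 (8.55 ± 2.8), NOTCH1 (6.53 ± 1.0), JAG1 (5.90 ± 1.2), DNER (1.14 ± 0.17), JAG2 (1.02 ± 0.26), DLL1 (0.146 ± 0.067) and HEYL (0.0390 ± 0.019), with gaps beyond 1 SD after HES1, JAG1, JAG2 and DLL1. The place of JAG1 in 4OHT_siNT pools 14.4 CPM per kilobase with siNT 2 and 7.20 with siNT 4, the latter below NOTCH1. HEY1 had rank 5 of the 10 genes in 4OHT_siNT and rank 2 in 4OHT_siSMARCA4.

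**Figure D1:**
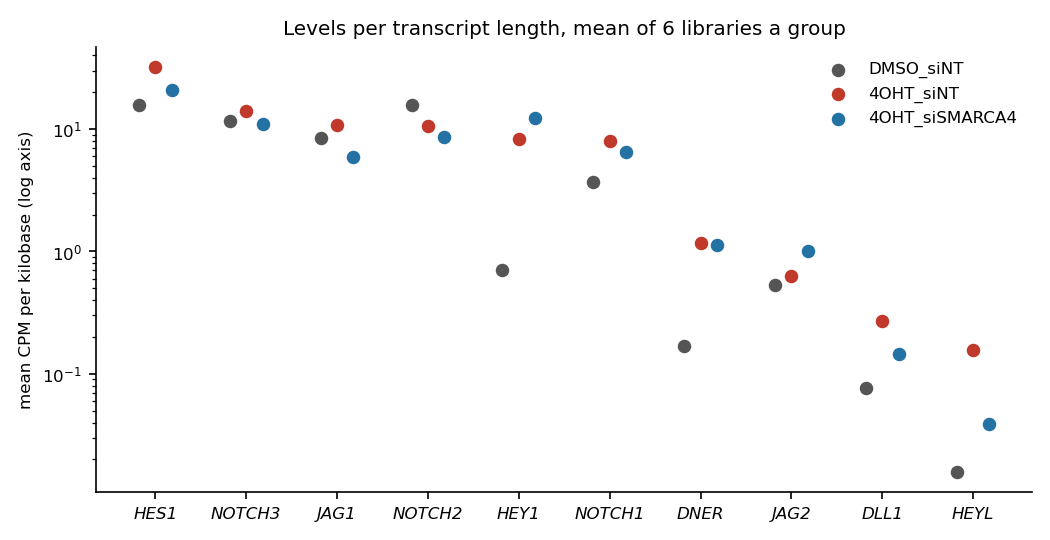
Mean CPM per kilobase of transcript (log axis) of the 10 genes, ordered by their level in 4OHT_siNT, with 1 point per group (mean of 6 libraries). HES1 was the highest in both 4OHT groups, and HEY1 moved from 0.699 in DMSO_siNT to 8.34 in 4OHT_siNT.

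After genes with too few counts were left out, 9 of the 10 genes were tested. HEYL did not pass, and DLL1 and DNER passed only through the 4OHT libraries in which they were higher, so the counts of genes called below do not describe all 10 and support nothing about the set. Between 4OHT_siNT and DMSO_siNT, 5 of the 9 were higher (HEY1, DNER, DLL1, NOTCH1 and HES1) and 1 was lower (NOTCH2), where 23.9% of all 13136 genes tested were called higher and 28.9% lower. Leaving DLL1 and DNER aside, it was 3 higher and 1 lower of 7. Between 4OHT_siSMARCA4 and 4OHT_siNT, JAG2 and HEY1 were higher and JAG1 was lower, with 4.99% of all genes called higher and 5.65% lower. Against DMSO_siNT, the 4OHT_siSMARCA4 libraries had 4 of the 9 higher (HEY1, DNER, JAG2 and NOTCH1) and 2 lower (NOTCH2 and JAG1), with 23.3% and 27.3% of all genes called. These comparisons share libraries: each group enters 2 of the 3.

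**Figure D2:**
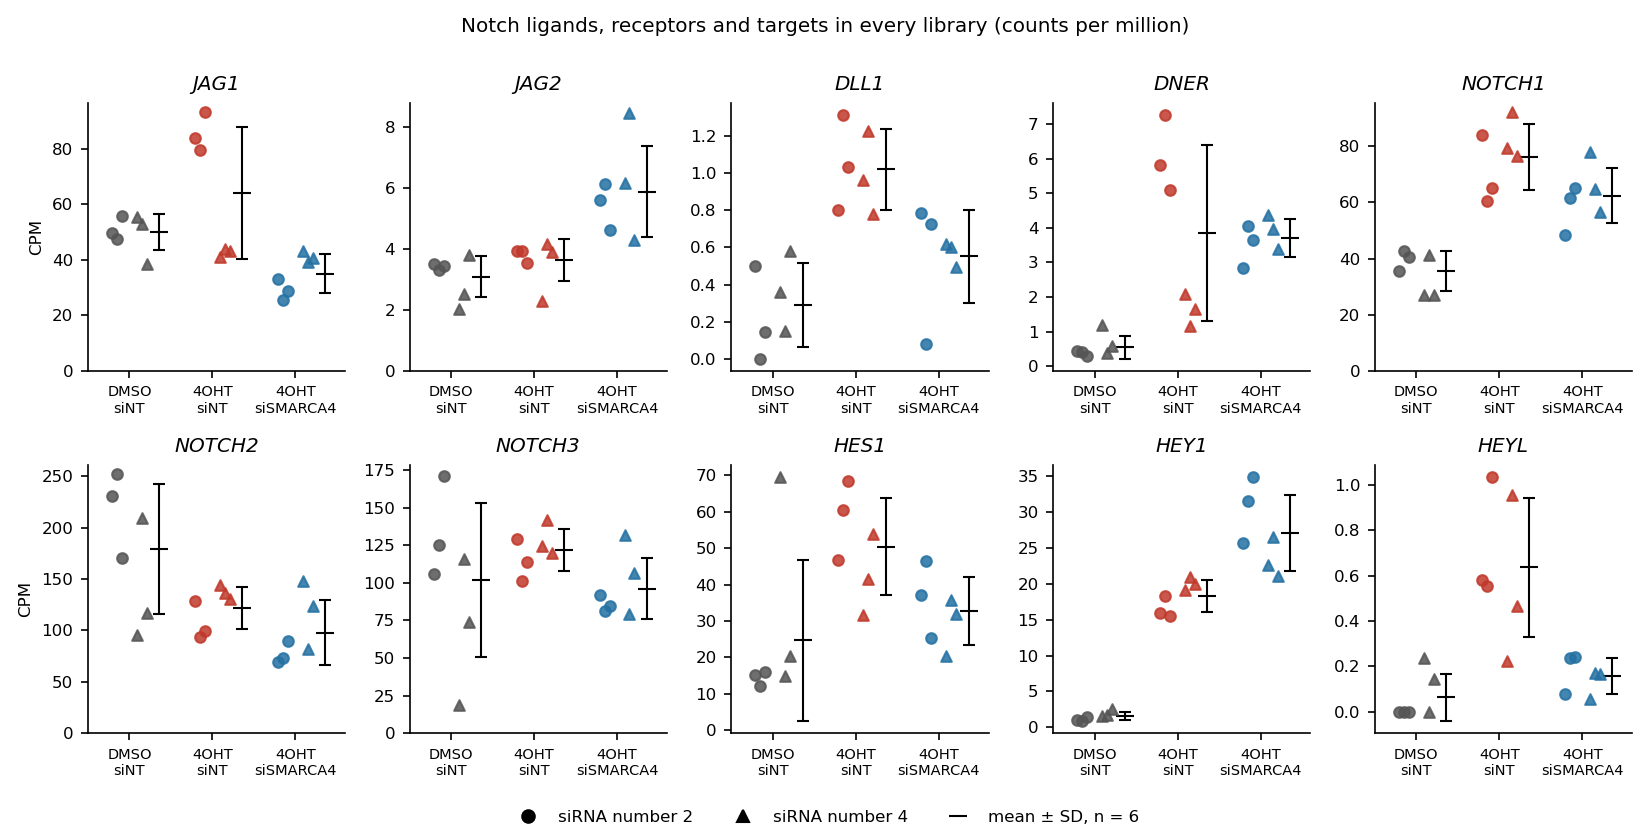
CPM of the 10 genes in all 18 libraries by group, with circles for siRNA number 2, triangles for number 4, and the mean ± SD of the 6 libraries as a bar. HEY1 lies at 0.906 to 2.55 CPM in DMSO_siNT and at 15.6 CPM or more in both 4OHT groups, JAG1 and DNER split by siRNA number within 4OHT_siNT, and a single DMSO_siNT triangle stands at 69.6 CPM for HES1.

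JAG1, a transmembrane ligand of the Jagged family, lies at chr20:10637684-10673999 (GRCh38, minus strand). In 4OHT_siNT, the libraries with siNT 2 held 84.0, 79.4 and 93.2 CPM in sets 1VM, 2VM and 3VM, and those with siNT 4 held 41.1, 44.01 and 43.2 CPM. The groups of 3 did not overlap, and siNT 2 was 2.04, 1.80 and 2.16 times siNT 4 within the sets, with a fitted ratio of 2.00. This is the difference the genes were chosen on. In DMSO cells, where the same siRNAs were used, siNT 2 gave 49.5, 47.3 and 55.8 CPM and siNT 4 gave 55.6, 53.0 and 38.7 CPM, which overlapped, with a log2 difference of 0.05 ± 0.14 (adjusted p = 0.827). The siNT 4 libraries of senescent cells thus lay within the range of the DMSO libraries, and the siNT 2 libraries above it.

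With SMARCA4 siRNA number 2, JAG1 was at 33.2, 25.7 and 28.8 CPM, and with number 4 at 43.02, 39.1 and 40.6 CPM. All 6 were below the siNT 2 libraries, while the 3 with siSMARCA4_4 overlapped those with siNT 4. Over all libraries JAG1 fell by 0.87 ± 0.20 on the log2 scale against 4OHT_siNT (means 35.0 ± 7.0 and 64.2 ± 24 CPM, SD, n = 6 each, adjusted p = 0.00896), by 1.00 ± 0.32 within VM sets (adjusted p = 0.0365). Against siNT 2 alone it was -1.29 and against siNT 4 alone -0.30, and the adjusted p against siNT 4 was 0.325. Both values carry the siNT difference used in the choice of genes and lend no support. The contrast over all libraries, and that within VM sets, hold the same siNT 2 libraries, so their p-values lend none either. With siSMARCA4_4 alone the difference was -0.65 (adjusted p = 0.223). No omission of a single library ended the call, but each left siNT 2 libraries in. Against DMSO_siNT (49.996 ± 6.5 CPM), JAG1 was lower with SMARCA4 siRNA by 0.51 ± 0.20 (adjusted p = 0.0419), a call that was lost in 13 of 29 alternatives, 6 of them by leaving out a single library, and within VM sets it was -0.62 ± 0.34 (adjusted p = 0.160). Between 4OHT_siNT and DMSO_siNT, JAG1 differed by 0.36 ± 0.20 (adjusted p = 0.140). By siRNA the values were 0.76 with siNT 2 and -0.18 with siNT 4, which restate the siNT difference the genes were chosen on.

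JAG2, the other Jagged ligand (chr14:105140982-105168824, minus strand), was far less abundant. It lay at 2.03, 3.36 and 3.79 CPM (lowest, median and highest) in DMSO_siNT, at 2.30, 3.92 and 4.16 CPM in 4OHT_siNT, and at 4.29, 5.86 and 8.47 CPM in 4OHT_siSMARCA4. Every library with SMARCA4 siRNA was above every other library. The rise over 4OHT_siNT was 0.69 ± 0.19 on the log2 scale (1.62-fold, adjusted p = 0.0252), and 0.99 ± 0.23 within VM sets (adjusted p = 0.00763). The call was lost in 9 of 29 alternatives. With a single siRNA in either group, or with a replicate block, the adjusted p was 0.107 to 0.174. It was also lost without 4OHT_siNT 2-3VM (adjusted p = 0.0522), 4OHT_siNT 4-1VM (0.0679), 4OHT_siSMARCA4 2-3VM (0.0575) or 4OHT_siSMARCA4 4-2VM (0.0839), with log2 fold changes from 0.55 to 0.68. Over DMSO_siNT the rise was 0.91 ± 0.19 (adjusted p = 0.000605). 4OHT itself came with a difference of 0.22 ± 0.20 (adjusted p = 0.36). The log2 differences of JAG1 and JAG2 between 4OHT_siSMARCA4 and 4OHT_siNT had opposite signs, a contrast between the genes that was not tested. That of JAG1 carries the siNT difference the genes were chosen on and lends no support. JAG1 stayed above JAG2 per kilobase.

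DLL1, a Delta-like ligand (chr6:170282206-170306565, minus strand), was at the edge of detection. Its counts were 7, 0, 2, 3, 2 and 8 in DMSO_siNT, 11, 19, 14, 13, 18 and 10 in 4OHT_siNT, and 10, 1, 9, 11, 7 and 6 in 4OHT_siSMARCA4. In CPM, every 4OHT_siNT library was above every DMSO_siNT library. The log2 fold change of 4OHT_siNT over DMSO_siNT was 1.79 ± 0.45 (adjusted p = 0.00272), and with siNT 4 only it was 1.44 (adjusted p = 0.060). Within VM sets it was 1.78 ± 0.52 (adjusted p = 0.00986). DLL1 passed the count filter only through the 4OHT libraries in which it was higher, and needed those of 4OHT_siNT, where it was highest. Its p-values over DMSO_siNT, and those for SMARCA4 siRNA against 4OHT_siNT below, therefore lend no support. With SMARCA4 siRNA, DLL1 differed from 4OHT_siNT by -0.88 ± 0.41 (adjusted p = 0.192) and from DMSO_siNT by 0.91 ± 0.49 (adjusted p = 0.127), a difference that passed at adjusted p = 0.0414 when the library with 1 count (siSMARCA4_2, set 3VM) was left out. Within VM sets these differences were -1.60 ± 0.62 (adjusted p = 0.0789) and 0.17 ± 0.78 (adjusted p = 0.879), where the library with 1 count is 1 of 2 with SMARCA4 siRNA.

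DNER, a neuronal transmembrane protein with epidermal growth factor-like repeats that binds Notch, is encoded at chr2:229357629-229714555 (minus strand). Its counts in DMSO_siNT were 4 to 10 a library, or 0.286 to 1.20 CPM. In 4OHT_siNT, siNT 2 gave 5.83, 7.27 and 5.10 CPM in sets 1VM, 2VM and 3VM and siNT 4 gave 2.08, 1.16 and 1.64 CPM. The siNT 2 libraries were 2.80, 6.26 and 3.11 times the siNT 4 libraries of the same set, with a fitted ratio of 3.72, and again this is the difference on which the genes were chosen. In DMSO cells siNT 2 minus siNT 4 was -0.83 ± 0.44 on the log2 scale (adjusted p = 0.238), with counts of 6, 5 and 4 against 10, 5 and 8.

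In 4OHT_siNT, DNER was above DMSO_siNT by 2.88 ± 0.44 (7.35-fold, adjusted p = 2.04e-05), and by 3.19 ± 0.64 within VM sets (adjusted p = 0.000675). It passed the count filter only through 4OHT libraries, and its 4OHT_siNT values entered the choice of genes. These p-values over DMSO_siNT, and that for SMARCA4 siRNA below, therefore lend no support. By siRNA the values were 4.00 with siNT 2 and 1.27 with siNT 4, which carry the siNT difference the genes were chosen on and are given without a test. With SMARCA4 siRNA the level was between those of the siNTs, at 2.84, 4.06 and 3.64 CPM for number 2 and 4.37, 3.98 and 3.38 CPM for number 4. All 6 lay above the 3 siNT 4 libraries and below the 3 siNT 2 libraries. As a result, the contrast with 4OHT_siNT was -0.05 ± 0.36 (adjusted p = 0.952) over both siNTs, -0.71 against siNT 2 alone and 1.18 against siNT 4 alone. The values against a single siNT carry the difference the genes were chosen on and lend no support, and the sign turned in 8 of 29 alternatives. Over DMSO_siNT the rise was 2.83 ± 0.44 (7.10-fold, adjusted p = 2.39e-05), without overlap.

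**Figure D3:**
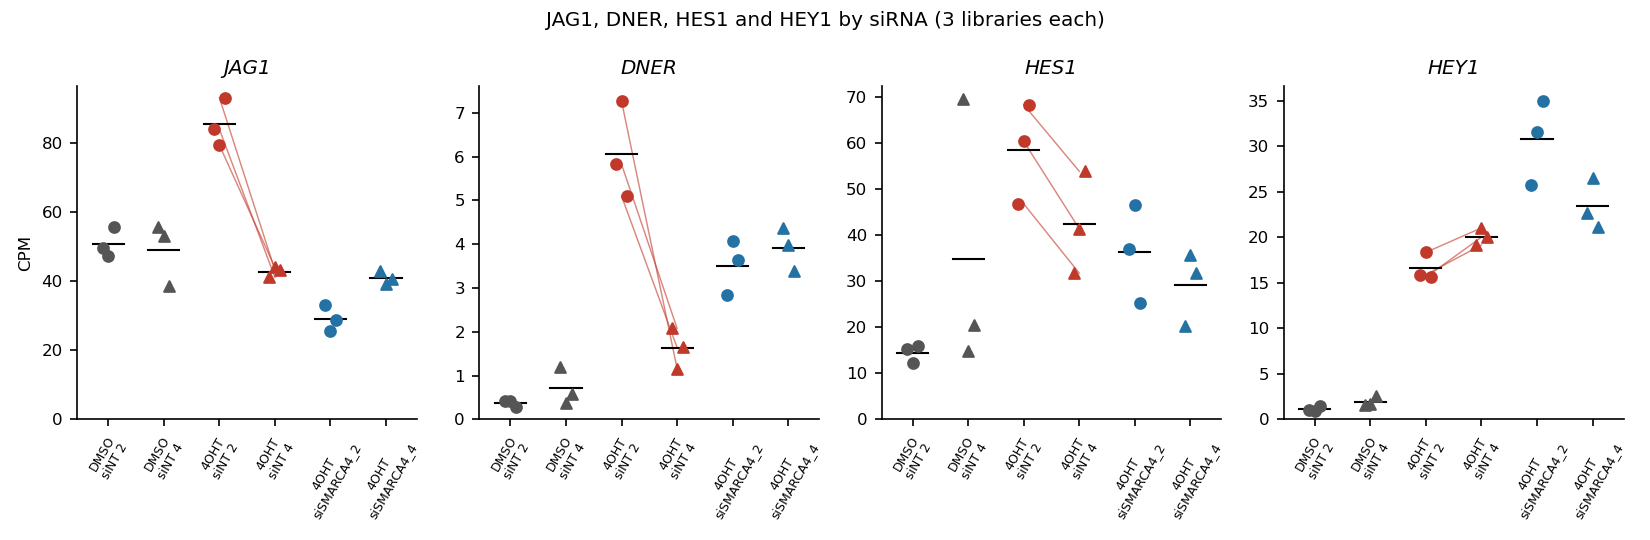
CPM of JAG1, DNER, HES1 and HEY1 in each of the 6 arms, with 3 libraries per arm as points, their mean as a bar, and red lines joining the siNT 2 and siNT 4 libraries of the same set in 4OHT cells. JAG1 falls from 79.4 to 93.2 CPM with siNT 2 to 41.1 to 44.01 CPM with siNT 4, DNER from 5.10 to 7.27 to 1.16 to 2.08 CPM, and the red lines slope down for HES1 and up for HEY1.

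Among the other members the siNT values were closer together. In 4OHT cells siNT 2 minus siNT 4 was 0.46 ± 0.41 on the log2 scale for HES1, 0.14 ± 0.28 for JAG2, 0.08 ± 0.57 for DLL1, -0.17 ± 0.39 for NOTCH3, -0.24 ± 0.19 for NOTCH1, -0.28 ± 0.17 for HEY1 and -0.36 ± 0.26 for NOTCH2, against 1.00 ± 0.14 for JAG1 and 1.89 ± 0.30 for DNER. These are descriptive values. HES1 was higher with siNT 2 in each of the 3 sets (1.47, 1.46 and 1.27 times) and HEY1 lower (0.829, 0.872 and 0.780 times). In DMSO cells, where the choice of genes made no use of the contrast, none of the 9 genes passed, against 7 of 13659 genes or 0.0512% (3872 genes had an unadjusted p under 0.05, 4 of the 9 among them). The lowest adjusted p-values there were those of HEY1 (-0.80 ± 0.25, adjusted p = 0.0700) and HES1 (-1.25 ± 0.43, adjusted p = 0.0869), and NOTCH3 differed by 0.93 ± 0.40 (adjusted p = 0.145). The siNT 4 libraries of HES1 include the 69.6 CPM of 4-2V. Without 4-2V the count of members called was also 0, and with DESeq2 1.42.0 it was 1. Without DMSO_siNT 4-2VM it was 6, where 4-2V and 4-3VM alone made up the siNT 4 arm. The share of all genes called in these fits is not given here, so these counts say nothing about the members.

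Both SMARCA4 siRNAs were compared in the same way. None of the 9 genes passed, against 1 gene of 13659 or 0.00732% (878 genes had an unadjusted p under 0.05, 3 of the 9 among them), and DESeq2 also called 0 of the 9. The largest difference was that of NOTCH2, at -0.60 ± 0.26 (number 2 minus number 4, adjusted p = 0.757), followed by JAG1 at -0.47 ± 0.14 (adjusted p = 0.443) and HEY1 at 0.41 ± 0.17 (adjusted p = 0.684). The 3 JAG1 values with number 2 were all below the 3 with number 4. SMARCA4 itself differed by -0.05 ± 0.21 between both siRNAs (adjusted p = 0.980).

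Over the 18 libraries, the genes whose log2 CPM was most like that of JAG1 among 11506 genes were INKA2 (Pearson r = 0.885), FAM210B (0.870) and CCND2 (0.853). For DNER they were FGFR1OP (0.942), CNOT8 (0.934) and the antisense RNA HECW2-AS1 (0.932), which can share reads with its partner gene where counting ignores strand. Libraries of a group share treatment, so these are descriptions only.

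Among the receptors, NOTCH1 (chr9:136494433-136546048, minus strand) rose with senescence. It was at 26.9, 37.9 and 42.6 CPM (lowest, median and highest) in DMSO_siNT, 60.5, 77.8 and 92.2 CPM in 4OHT_siNT and 48.3, 63.2 and 78.1 CPM in 4OHT_siSMARCA4. Neither 4OHT group overlapped DMSO_siNT, and they overlapped each other. The rise in 4OHT_siNT was 1.10 ± 0.14 (2.14-fold, adjusted p = 2.93e-06), 1.08 ± 0.15 within VM sets (adjusted p = 2.79e-05), and 0.83 and 1.40 with siNT 2 and siNT 4 only. SMARCA4 siRNA came with -0.29 ± 0.14 (adjusted p = 0.215), and the level was still 0.81 ± 0.14 above DMSO_siNT (adjusted p = 9.31e-05).

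NOTCH2 (chr1:119911553-120100779, minus strand) went the other way. Its levels were 95.4, 190 and 252 CPM in DMSO_siNT, 93.5, 129 and 144 CPM in 4OHT_siNT and 69.2, 85.9 and 148 CPM in 4OHT_siSMARCA4, and all the groups overlapped. The fall in 4OHT_siNT was at the threshold (-0.56 ± 0.23, adjusted p = 0.0482). It was lost in 18 of 27 alternatives, among them the omission of any of 13 single libraries and the use of siNT 4 only (-0.02, adjusted p = 0.959), and it was -0.68 ± 0.20 (adjusted p = 0.00618) without DMSO_siNT 4-2V, which had the 95.4 CPM, and -0.44 ± 0.16 within VM sets (adjusted p = 0.0338). Against DMSO_siNT, the libraries with SMARCA4 siRNA were lower by 0.88 ± 0.23 on the log2 scale (adjusted p = 0.00352) and by 1.00 ± 0.20 without 4-2V (adjusted p = 0.000200). The contrast of 4OHT_siSMARCA4 with 4OHT_siNT was -0.32 ± 0.23 (adjusted p = 0.420), against -0.67 ± 0.20 in the VM sets (adjusted p = 0.0286). NOTCH2 shares sequence with the partial copies NOTCH2NLA, NOTCH2NLB, NOTCH2NLC and NOTCH2NLR, counted at means of 0.409 to 1.28 CPM, so how reads were divided among them is uncertain.

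NOTCH3 (chr19:15159038-15200995, minus strand) varied most of the receptors among the members in DMSO cells, relative to its mean. It was at 106, 125 and 171 CPM with siNT 2 and at 18.9, 116 and 73.8 CPM with siNT 4, where the 18.9 CPM belong to 4-2V. The 4OHT_siNT libraries lay at 101, 122 and 142 CPM (lowest, median and highest) and those with SMARCA4 siRNA at 79.0, 88.4 and 132 CPM. No contrast of the 3 passed: 4OHT_siNT over DMSO_siNT was 0.26 ± 0.30 (adjusted p = 0.492) and 0.05 ± 0.16 without 4-2V (adjusted p = 0.813), and 4OHT_siSMARCA4 over 4OHT_siNT was -0.34 ± 0.30 (adjusted p = 0.529), or -0.35 ± 0.16 without 4-2V (adjusted p = 0.105). With that library left out, 4OHT_siSMARCA4 over DMSO_siNT was -0.30 ± 0.16 (adjusted p = 0.117), against -0.09 ± 0.30 with it (adjusted p = 0.833). Within VM sets, NOTCH3 with SMARCA4 siRNA differed by -0.62 ± 0.22 from 4OHT_siNT (adjusted p = 0.0576) and by -0.60 ± 0.24 from DMSO_siNT (adjusted p = 0.0566). With the library whose column names set 1VM added, a choice made after seeing the data, these passed at -0.59 (adjusted p = 0.0213) and -0.57 (adjusted p = 0.0282). The contrast with 4OHT_siNT also passed when only those groups were fitted (-0.34, adjusted p = 0.0435), and that with DMSO_siNT against siNT 2 alone (-0.48, adjusted p = 0.0155).

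HEY1 (chr8:79762371-79767857, minus strand), a repressor of the Hairy and Enhancer-of-split-related family, had the largest rise of the 9 tested genes. It was at 0.906, 1.49 and 2.55 CPM in DMSO_siNT, 15.6, 18.7 and 21.0 CPM in 4OHT_siNT and 21.1, 26.1 and 34.9 CPM in 4OHT_siSMARCA4, and none of the groups overlapped. The rise in senescence was 3.56 ± 0.20 on the log2 scale (11.8-fold, adjusted p = 2.77e-11), 3.86 and 3.36 with siNT 2 and siNT 4 only, and 3.27 ± 0.19 within VM sets. SMARCA4 siRNA came with a further 0.56 ± 0.16 (1.48-fold, adjusted p = 0.0333), and 0.65 ± 0.16 within VM sets (adjusted p = 0.00914). The lowest library with SMARCA4 siRNA (21.1 CPM) was just above the highest with siNT (21.0 CPM). This second call was lost in 13 of 29 alternatives, of which 9 left out a single library (adjusted p from 0.0103 to 0.111 over all 18 omissions), and with siSMARCA4_4 alone the log2 difference was 0.35 (adjusted p = 0.475). Without 4-2V it was 0.55 ± 0.15 (adjusted p = 0.0103). Over DMSO_siNT the rise with SMARCA4 siRNA was 4.13 ± 0.20 (17.5-fold, adjusted p = 3.77e-12).

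HES1 (chr3:194136148-194138732, plus strand), whose promoter carries both cores shown above, was more variable. In DMSO_siNT, siNT 2 gave 15.2, 12.2 and 16.0 CPM and siNT 4 gave 69.6, 14.8 and 20.4 CPM, the first of these in 4-2V. In 4OHT_siNT the libraries with siNT 2 held 46.8, 60.4 and 68.4 CPM and those with siNT 4 held 31.8, 41.4 and 53.9 CPM, so that all 6 were above 5 of the 6 DMSO_siNT libraries and below 4-2V. SMARCA4 siRNA number 2 gave 37.02, 46.6 and 25.3 CPM and number 4 gave 20.3, 35.7 and 31.8 CPM, overlapping both other groups.

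HES1 rose by 1.05 ± 0.36 in 4OHT_siNT (adjusted p = 0.0186), and by 1.68 ± 0.21 without 4-2V (adjusted p = 6.10e-07). Within VM sets, which do not hold 4-2V, the rise was 1.56 ± 0.21 (adjusted p = 1.86e-05). It was 2.02 with siNT 2 only (adjusted p = 1.21e-05) and 0.31 with siNT 4 only (adjusted p = 0.604). The contrast of 4OHT_siSMARCA4 with 4OHT_siNT was -0.62 ± 0.35 (adjusted p = 0.288), and without 4-2V it was -0.63 ± 0.19 (adjusted p = 0.0174). The log2 value barely moved between these fits, while its SE fell from 0.35 to 0.19. Within VM sets it was -0.31 ± 0.23 (adjusted p = 0.363), and over all alternatives the adjusted p ran from 0.0174 to 0.683. Over DMSO_siNT, SMARCA4 siRNA came with 0.42 ± 0.35 (adjusted p = 0.334) and with 1.05 ± 0.20 without 4-2V (adjusted p = 0.000167). HES1 and HEY1, both higher in 4OHT_siNT than in DMSO_siNT, thus had log2 differences of opposite sign with SMARCA4 siRNA. That contrast between the genes was not tested.

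HEYL (chr1:39623435-39639643, minus strand), another repressor of the HEY family, was at a level near 0. Its counts were 0, 0, 0, 2, 0 and 2 in DMSO_siNT, 8, 8, 14, 3, 14 and 6 in 4OHT_siNT, and 1, 3, 3, 1, 2 and 2 in 4OHT_siSMARCA4. Summed over libraries this was 4, 53 and 12 counts, and every 4OHT_siNT library held at least as many counts as any library of the other groups. In CPM the groups overlapped: the lowest 4OHT_siNT library lay at 0.223 CPM, the highest of DMSO_siNT at 0.239 and of 4OHT_siSMARCA4 at 0.242 CPM. The ratio of summed rates was 12.1 (95% interval 4.47 to 46.2, exact binomial, counting error only) for 4OHT_siNT over DMSO_siNT and 0.236 (0.115 to 0.448) for 4OHT_siSMARCA4 over 4OHT_siNT. Without 4-2V, which held 2 of the 4 DMSO_siNT counts, the first ratio was 21.6 (5.69 to 183), and that of 4OHT_siSMARCA4 over DMSO_siNT went from 2.87 (0.87 to 12.2) to 5.1 (1.14 to 47). In a fit without the filter on low counts, over 22201 genes, the log2 fold changes were 3.38 ± 0.66 (adjusted p = 0.000286) and -1.96 ± 0.56 (adjusted p = 0.0398), and 1.41 ± 0.79 (adjusted p = 0.187) for 4OHT_siSMARCA4 over DMSO_siNT.

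**Figure D4:**
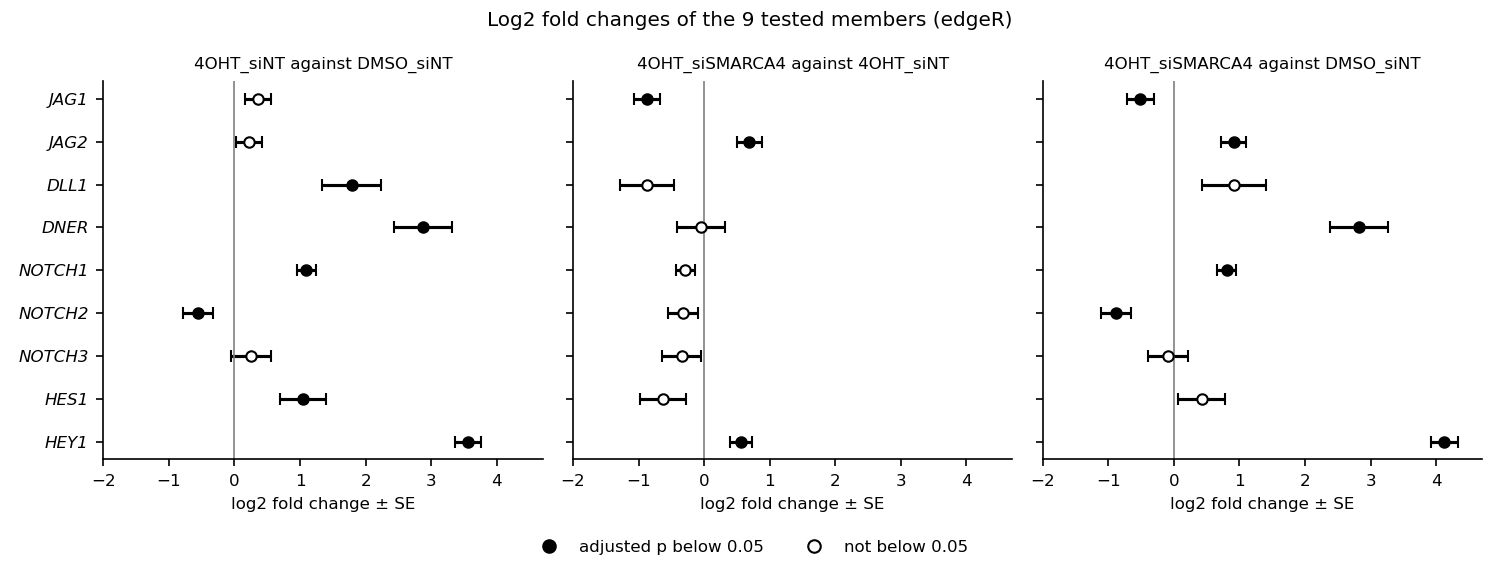
Log2 fold changes ± SE (edgeR, 18 libraries) of the 9 tested genes in the 3 contrasts, with filled points at an adjusted p below 0.05. HEY1 stands at 3.56 and DNER at 2.88 in the left panel. In the middle panel JAG1 is at -0.87, JAG2 at 0.69 and HEY1 at 0.56. The JAG1 value there carries the siNT difference the genes were chosen on.

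A list of 61 other genes of the pathway, grouped by role, was examined beside the members, and 52 of them were tested. Between 4OHT_siNT and DMSO_siNT, 16 were higher and 11 lower, with a median log2 fold change of -0.02. This was 51.9% of the list, near the 52.8% called over all genes. Without 4-2V it was 18 and 14, with 58.3% of all genes called. Among ligands and ligand-like genes, DLL4 (1.07 ± 0.36, adjusted p = 0.0173) and the matrix protein gene MFAP2 (0.77 ± 0.27, adjusted p = 0.0211) were higher, 2 of 4 tested. The fourth receptor, NOTCH4, was at 0.57 ± 0.37 (adjusted p = 0.200). Of 6 genes for ligand ubiquitination and endocytosis, the ubiquitin ligase gene NEURL1B had the largest change on the list, from 17 to 181 counts a library in DMSO_siNT to 2 to 6 in 4OHT_siNT (-4.85 ± 0.49, adjusted p = 9.15e-08), and EPN2 (0.51 ± 0.14) and MIB2 (0.33 ± 0.14) were higher.

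Of 5 tested genes for receptor glycosylation, POGLUT1 was higher (0.35 ± 0.10) and EOGT lower (-0.40 ± 0.12). Of 9 genes for receptor cleavage, the gamma-secretase gene PSENEN (0.90 ± 0.12) and the furin convertase gene FURIN (0.84 ± 0.20) were higher, and APH1B (-0.89 ± 0.12), another gamma-secretase subunit, and ADAM10 (-0.41 ± 0.12), the protease of the first cut, were lower. In the nuclear complex, the Mastermind gene MAML3 rose (1.24 ± 0.21, adjusted p = 4.51e-05), EP300 rose (0.51 ± 0.19) and KAT2B fell (-1.14 ± 0.18), both of which encode acetyltransferases, while RBPJ itself was at -0.29 ± 0.21 (adjusted p = 0.251), with 606 CPM in 4-2V, 241 ± 44 CPM (SD, n = 5) in the other DMSO_siNT libraries and 246 ± 9.2 CPM (n = 6) in 4OHT_siNT. Of 6 corepressors, SPEN (0.76 ± 0.22) was higher and CIR1 (-1.08 ± 0.32) and L3MBTL3 (-0.47 ± 0.19) lower. Only 3 of the 8 other HES, HEY and feedback genes were tested, of which HES7 rose by 2.56 ± 0.24 (5.91-fold, adjusted p = 3.57e-08), from 1.44 ± 0.67 to 8.32 ± 1.0 CPM (SD, n = 6). Among 11 genes listed here as negative regulators, a label not tested in these data, NUMB (1.56 ± 0.15), DTX4 (1.27 ± 0.23) and DTX2 were higher. DTX3L (-1.14 ± 0.22), NEDD4, NUMBL and CCNC were lower.

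SMARCA4 siRNA came with 4 calls on the list, 3 higher and 1 lower than in 4OHT_siNT, and a median of 0.02. The share called was 7.69%, against 10.6% of all genes. MAML3, a Mastermind coactivator, fell from 19.9 ± 2.9 to 9.20 ± 1.6 CPM (-1.11 ± 0.20, adjusted p = 0.00172), near its 8.33 ± 3.5 CPM in DMSO_siNT (0.14 ± 0.21 for 4OHT_siSMARCA4 over DMSO_siNT, adjusted p = 0.609). EOGT, a glycosyltransferase gene, rose from 28.2 ± 2.8 to 43.7 ± 7.2 CPM (0.63 ± 0.12, adjusted p = 0.00227), and the gamma-secretase genes PSEN2 (0.56 ± 0.14, adjusted p = 0.0135) and APH1B (0.42 ± 0.12, adjusted p = 0.0331) rose as well. EOGT and APH1B had been lower and MAML3 higher in 4OHT_siNT than in DMSO_siNT, contrasts that share the 4OHT_siNT libraries. The count of 4 rose to 17 (8 higher, 9 lower) without DMSO_siNT 4-2V and to 18 (7 higher, 11 lower) within VM sets, where 24.6% and 21.0% of all genes were called in place of 10.6%. Over DMSO_siNT, 12 were higher and 9 lower with SMARCA4 siRNA, which was 40.4% of the list genes tested, against 50.5% of all genes.

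**Figure D5:**
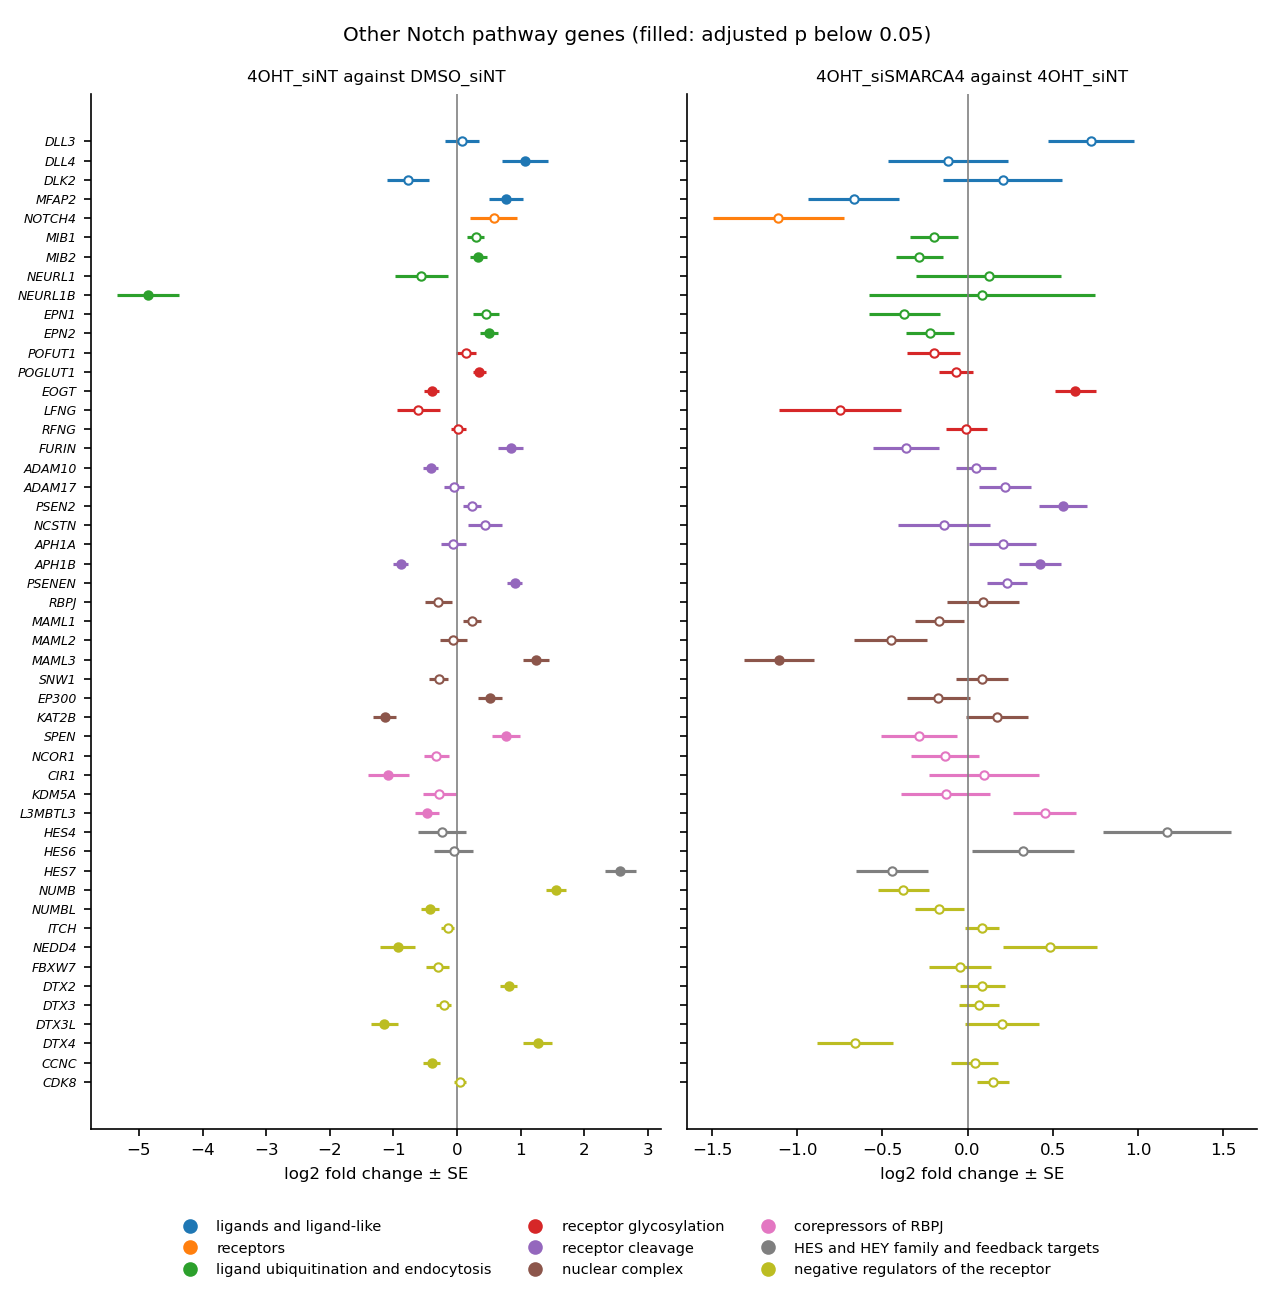
Log2 fold changes ± SE of 50 of the 52 tested genes of the wider pathway, colored by role and filled at an adjusted p below 0.05, for 4OHT_siNT against DMSO_siNT (left) and 4OHT_siSMARCA4 against 4OHT_siNT (right), with different horizontal scales. NEURL1B at -4.85 and HES7 at 2.56 mark the extremes on the left, and the filled points on the right are EOGT, PSEN2, APH1B and MAML3.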

How the data were processed

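Polyadenylated RNA was made into directional libraries and sequenced as single-end reads. The submitters' processing notes name STAR 2.7.8a, DESeq2 1.36.0 and hg38. The annotation, the counting program and its strand setting are not given in the sources used here. The authors deposited raw counts per gene symbol, not normalized, in 36 columns, 1 per library and lane. Lanes were summed into 18 libraries (9657309 to 18039313 counts) and no column was left unused. Of 29 labelled samples, 17 matched a library and the other 12 were not analysed here. A library named for 4OHT_siSMARCA4 with siRNA 2 has set 1VM in its column name, which no sample title of that group carries, and entered its group but no set.

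Genes were filtered with filterByExpr (minimum count 10), scaled with TMM and compared by quasi-likelihood F tests in edgeR 4.0.16 (R 4.3.3), two-sided, with 3 groups and no covariate, and Benjamini-Hochberg adjustment over all 13136 genes (called below 0.05). siRNAs were compared in a fit with 6 arms (13659 genes). SEs were derived from the F statistic. CPM are on the TMM scale, and the scripts were tested on simulated data. Gene positions and MANE Select lengths are from GENCODE 44, and promoters from RefSeq. Intervals cover counting error only.

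The members, the pathway list and the marker lists were chosen with earlier results of these data known. Named were all members, list genes called with SMARCA4 siRNA, per role up to 3 list genes with the largest change among those called in 4OHT_siNT, the 3 genes most like JAG1 and DNER (mean log2 CPM above 1), SMARCA4, ESR1 and HRAS. ADAM10, RBPJ, L3MBTL3, NOTCH4, DTX2, NEDD4, NUMBL, CCNC and the NOTCH2 copies were named after their values were seen. Single values of 2 list genes are not reported here, though the counts include them. Alternatives were RLE scaling, DESeq2 1.42.0, no filter, a replicate block, VM sets, only the groups compared, single siRNAs, and leaving out each library. No 2 libraries differed by as little as sampling noise.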

Additional observations from a re-analysis of the deposited data

Results flagged for a closer look

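For each of the 9 tested genes and each group, the highest and lowest of the 6 libraries were compared with the rest of the group by the gap to the nearest library over the whole range, on log2(CPM + 0.5). Of 27 sets of 6 libraries, 3 exceeded Dixon's 95% limit for 6 values, where chance gives about 1 in 20. HES1 in DMSO_siNT 4-2V was the highest of its group with a ratio of 0.708 (69.6 CPM against 12.2 to 20.4 CPM in the others). JAG2 in 4OHT_siNT 4-1VM was the lowest with 0.723 (2.30 CPM against 3.55 to 4.16 CPM), and without that library its call with SMARCA4 siRNA was lost (adjusted p = 0.0679). DLL1 in 4OHT_siSMARCA4 2-3VM was the lowest with 0.677 (1 count against 6 to 11 in the others).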

How the results depend on the processing

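Over 27 log2 fold changes of single genes and 764 alternative values, 749 kept their direction. Of 6 members called between 4OHT_siNT and DMSO_siNT, the number was 3 with siNT 4 only, and 5 to 6 when single libraries were left out. Of 3 called between 4OHT_siSMARCA4 and 4OHT_siNT, the number was 0 with a replicate block (the set label as a factor) and 0 with siSMARCA4_4 alone. It was 1 against siNT 2 alone and 1 against siNT 4 alone. Counts with or against a single siNT, here and above, carry the siNT difference the genes were chosen on and lend no support. The number was 5 with only the 2 groups compared, and 5 in VM sets with the library whose column names set 1VM (chosen after seeing the data). It was 1 to 4 with single libraries left out (1 without 4OHT_siNT 2-3VM or 4-1VM, or 4OHT_siSMARCA4 2-3VM or 4-2VM). The pathway list gave 4 calls there, and 8 with DESeq2, 0 with the block, 18 in VM sets, 17 with 2 groups, 2 with siSMARCA4_4 alone, 23 in VM sets with that library, and 3 to 17 with single libraries left out (17 without DMSO_siNT 4-2V and 10 without 4OHT_siSMARCA4 4-2V). With the block the list gave 15 calls for 4OHT_siNT over DMSO_siNT (27 without it) and 12 for 4OHT_siSMARCA4 over DMSO_siNT (21 without it). For siNT 2 against siNT 4 in DMSO cells, 0 became 1 with DESeq2, 1 without the filter and 0 to 6 with single libraries left out. The share of all genes called changes between fits and is mostly not given, so these counts say nothing about the members or the list.

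Directions turned as follows. NOTCH3 between 4OHT_siNT and DMSO_siNT was -0.22 with siNT 2 only, and JAG1 was -0.18 with siNT 4 only. DNER between 4OHT_siSMARCA4 and 4OHT_siNT was 0.049 in VM sets, 0.025 with siSMARCA4_4 alone, 1.18 against siNT 4 alone, 0.0027 in VM sets with that library and -0.25 to 0.22 with single libraries left out. Between 4OHT_siSMARCA4 and DMSO_siNT, NOTCH3 was 0.052 with the block, 0.071 with siSMARCA4_4 alone, 0.46 against siNT 4 alone and -0.30 to 0.12 with single libraries left out, and HES1 was -0.069 against siNT 4 alone. The causes were not tested. Libraries of the same set label in different groups had correlations of deviations from -0.23 to 0.27. They were 0.151 to 0.265 in set 3VM and negative in sets 2V and 2VM. The labels thus gave no clear pairing, and the block says nothing of weaker effects. DLL1 and HEYL are limited by depth, at no more than 19 counts a library.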
